A study of Homo sapiens with 18 samples.

Results

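Ezetimibe and fenofibrate are lipid-lowering drugs with different protein targets, and the 60 genes described here are those that responded to each of them in Cal51, a human breast cancer cell line. A gene was included if the authors' deposited tables listed it both for ezetimibe against DMSO and for fenofibrate against DMSO, and its level in ezetimibe-treated cells was then set against its level in fenofibrate-treated cells. The 60 genes are 12.7% of the 472 genes in the ezetimibe table, 58.8% of the 102 genes in the fenofibrate table, and a small part of the 3647 genes in any of the 3 deposited tables. The series holds 18 libraries of total RNA in 6 groups of 3. The groups used here are Cal51 cells given ezetimibe, Cal51 cells given fenofibrate and Cal51 cells given the solvent DMSO, each for 8 h. Cells given fenofibrate plus ezetimibe, called the combination, are used only to describe levels. The libraries of PKM2 KO cells and their control are not analysed here. The labels give no dose of either drug, no genotype other than that of the line and no sign that replicates were separate cultures, so a higher level with one drug is a statement about the amounts used, and the p-values may measure technical spread alone.

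Ezetimibe blocks NPC1L1, a membrane protein that takes up sterols in the intestine and liver, and fenofibrate activates PPARα, a nuclear receptor that switches on fatty acid oxidation. Cells sense the cholesterol in the membrane of the endoplasmic reticulum. When it is low, the transcription factor SREBP2 is released and raises the enzymes of cholesterol synthesis. A separate pathway, the integrated stress response, raises the transcription factor ATF4 when amino acids are short or proteins misfold, and ATF4 in turn raises genes of amino acid supply, one-carbon metabolism and growth arrest.

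Values are the authors' normalised counts, which behave like whole reads scaled by a single factor in each library. The factors differ between the tables, so the fenofibrate values were multiplied by 1.03, the mean ratio of the DMSO columns of both tables. In the 60 genes the counts worked back from these factors sum to 51318 to 55382 per library with ezetimibe, 40889 to 46982 with fenofibrate and 15714 to 19104 with DMSO. The full depth of each library is unknown. Because only listed genes have values, the scale between the drugs could not be checked on genes that did not respond. No marker of breast epithelium, endothelium, leukocytes, fibroblasts or adipocytes was among the 60 genes, so the identity of the cells could not be checked on them.

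The fenofibrate libraries differed among themselves with gene length. The log2 deviation of a library from the mean of the others in its group had a Spearman correlation with gene length, across the 60 genes, of 0.66 in fenofibrate replicate 1, -0.57 in replicate 2 and 0.35 in replicate 3. The 3 values are tied to each other, since each library is set against the other fenofibrate libraries. Replicate 2 was the one with the opposite sign, its short genes reading high and its long genes low, and it had the largest median absolute deviation of the 3 (0.20 on the log2 scale, against 0.15 in replicate 1 and 0.12 in replicate 3). Correlations of the same kind ran from -0.08 to 0.07 in the ezetimibe libraries and from -0.13 to 0.17 in the DMSO libraries. The log2 difference between the drugs had a correlation of 0.07 with gene length with all libraries and of -0.03 without fenofibrate replicate 2. These are descriptions across genes, which are not independent replicates. The part of this deviation in single results was not tested. The values without fenofibrate replicate 2 are given where the call of a gene named here changed.

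All 60 genes moved in the same direction with each drug by the authors' calls, 57 higher and 3 lower than with DMSO, yet they did not move by the same amount. In bulk RNA, a change in the number of cells of a kind and a change in RNA per cell cannot be told apart. By limma on log2 values, with Benjamini-Hochberg adjustment over the 60 genes and a threshold of 0.05, 35 genes (58.3%) differed between the drugs. Of these, 26 (43.3%) were higher and 9 (15.0%) were lower with ezetimibe. The lower calls included 5 of 7 sterol members and the higher calls 9 of 12 members of the ATF4 list. The median log2 difference over all 60 genes, ezetimibe minus fenofibrate, was 0.28, with a range from -0.98 to 2.39. In 44 genes (73.3%) no ezetimibe library overlapped a fenofibrate library, with ezetimibe higher in 31 (51.7%) and lower in 13 (21.7%). The rule for including a gene required a response to each drug, so genes that responded to only one of them, which could differ most, have no value here.

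**Figure D1:**
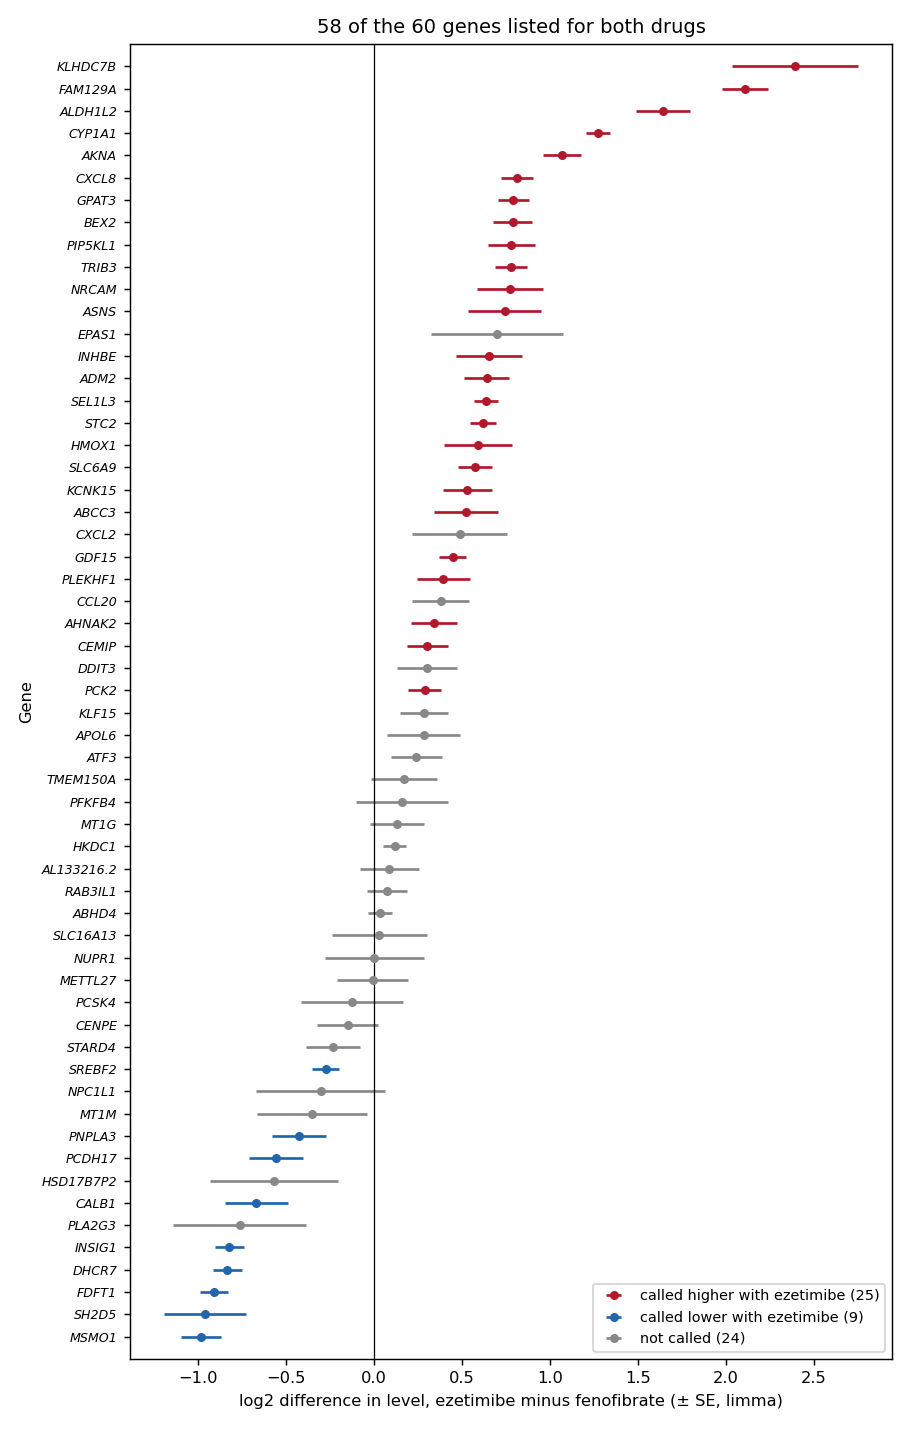
Log2 difference in level between ezetimibe and fenofibrate (x axis, ± SE from limma, 3 libraries per drug) for 58 of the 60 genes (y axis). Red points mark the 25 drawn genes called higher with ezetimibe, blue points the 9 called lower and grey points the 24 not called; KLHDC7B lies at the top with 2.39 and MSMO1 at the bottom with -0.98.

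The authors' own changes against DMSO chose these genes and are given only as a description. Their median log2 fold change in the authors' deposited tables was 1.51 with ezetimibe and 1.37 with fenofibrate. The tables list no gene with an absolute log2 fold change under 1. The members closest to that limit were MT1M with ezetimibe (1.01) and PCDH17 with fenofibrate (-1.01). An absolute log2 fold change under 1.1 was listed for 4 of the 60 genes with ezetimibe and for 13 with fenofibrate. Genes just outside the limit are not listed and not analysed here.

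Sterol genes made 5 of the 9 lower calls. The sterol list, which holds 30 cholesterol synthesis genes and SREBP2 targets, shared 7 members with the 60, and 5 of these were lower with ezetimibe, 0 were higher and 2 did not pass, against 15.0% lower over all 60 genes. The median log2 difference of the 7 was -0.82, against 0.28 over all 60. All 7 values were negative, the lowest being -0.98. The list had 8 members in the ezetimibe table and 18 in the fenofibrate table, and members listed for fenofibrate alone could not be compared.

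MSMO1, an oxidase that removes methyl groups from the sterol ring (ENSG00000052802, chromosome 4, 165327623 to 165343160 on hg38), had normalised counts of 1035, 876 and 959 with ezetimibe, 1806, 2136 and 1746 with fenofibrate and 419, 385 and 511 with DMSO. Every ezetimibe library lay below every fenofibrate library. The DMSO libraries lay lower still, but in this and the other genes a distance from DMSO was largely set by the rule for including a gene. The log2 difference between the drugs was -0.98 ± 0.12 (limma, adjusted p = 1.73e-05), so that the fenofibrate mean was 1.98 times that of ezetimibe. FDFT1, which makes squalene, the first committed step of sterol synthesis (chromosome 8, 11795573 to 11839309), had 1745, 1694 and 1787 with ezetimibe against 3129, 3662 and 3069.7 with fenofibrate and 844, 802 and 765 with DMSO. Its drug groups did not overlap, and the log2 difference between the drugs was -0.91 ± 0.08 (limma, adjusted p = 3.27e-06).

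DHCR7, the enzyme of the last step to cholesterol (chromosome 11, 71428193 to 71452868), had 2209, 2212 and 2099 with ezetimibe, 3592, 4364 and 3719.7 with fenofibrate and 969, 1009 and 905 with DMSO. The highest fenofibrate value was that of replicate 2, and without it the log2 difference of -0.84 ± 0.08 (limma, adjusted p = 7.25e-06) became -0.75 ± 0.06. INSIG1, which retains SREBP proteins and is itself an SREBP2 target (chromosome 7, 155297776 to 155310235), had 866, 931 and 922 with ezetimibe, 1648, 1504 and 1659.7 with fenofibrate and 364, 329.7 and 403 with DMSO. Here too each ezetimibe library lay below each fenofibrate library (log2 difference -0.82 ± 0.08, limma, adjusted p = 8.04e-06). The 4 enzymes and regulators just named thus had fenofibrate means of 1.77 to 1.98 times the ezetimibe means.

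The upstream regulator and a carrier protein of the pathway differed less. SREBF2, the gene of SREBP2 itself (chromosome 22, 41833079 to 41907308), had 4252, 4318 and 4381 with ezetimibe, 5195, 5045 and 5418 with fenofibrate and 1993, 2151 and 1768 with DMSO, a small difference that passed, with no overlap of the drug groups (log2 -0.27 ± 0.08, limma, adjusted p = 0.0101). STARD4, a sterol carrier of the cytosol, had 393, 337 and 333 with ezetimibe and 496, 322 and 449 with fenofibrate, and the groups overlapped (log2 -0.23 ± 0.15, 95% interval -0.57 to 0.11, limma, adjusted p = 0.21). Fenofibrate replicate 2 was the lowest of its group, and without it STARD4 was called lower (log2 -0.42 ± 0.12, limma, adjusted p = 0.0122).

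The promoter of SREBF2 is shown because it was the only one among the sterol members with a RefSeq promoter that held the sterol regulatory element searched for. RefSeq promoters (GRCh38.p14, 250 bases before to 50 after the gene start) were found for 41 of the 60 genes. The letters TCACNCCAC, on either strand, were in 2 of these 41 (SREBF2 and TMEM150A) and in 1.13% of 35116 promoters. SREBF2 lies on the plus strand at chr22:41832855-41833154, and capitals mark the match, whose last bases overlap one match of the letters GCGTG on the minus strand.
SREBF2: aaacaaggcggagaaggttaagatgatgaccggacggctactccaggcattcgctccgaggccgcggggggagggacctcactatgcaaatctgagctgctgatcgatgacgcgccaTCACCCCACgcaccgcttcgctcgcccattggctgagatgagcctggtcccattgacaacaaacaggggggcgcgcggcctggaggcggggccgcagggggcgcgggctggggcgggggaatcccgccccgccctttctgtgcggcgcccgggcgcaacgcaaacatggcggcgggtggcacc

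Other lipid genes gave 1 lower call and 1 gene that did not pass. PNPLA3, a lipid droplet protein and a known SREBP1 target, was the only shared member of the fatty acid and glycerolipid list and had 176, 187 and 173 with ezetimibe, 254, 190.5 and 285 with fenofibrate and 84.3, 94.9 and 84.4 with DMSO (log2 difference -0.42 ± 0.15, limma, adjusted p = 0.0346). Its highest ezetimibe value lay just under the lowest fenofibrate value, replicate 2. The call was lost without any 1 of the 3 ezetimibe libraries, without fenofibrate replicate 1 or without fenofibrate replicate 3, with adjusted p up to 0.148, and was made without fenofibrate replicate 2 (log2 -0.59 ± 0.12, adjusted p = 0.00195). PLA2G3, a secreted phospholipase, had 77.3, 80.5 and 90.3 with ezetimibe, 128, 134 and 163 with fenofibrate and 4.90, 19.3 and 7.48 with DMSO, and did not pass although its drug groups did not overlap (log2 -0.76 ± 0.38, 95% interval -1.59 to 0.07, limma, adjusted p = 0.104). It was called in 4 alternatives at nearly the same difference: with 5 added (adjusted p = 0.0445), with only the 6 drug libraries (adjusted p = 0.00248), and without DMSO replicate 1 (adjusted p = 0.0489) or DMSO replicate 2 (adjusted p = 0.00761). GPAT3, an acyltransferase of triglyceride synthesis that was on no list, went the other way and is described below with the genes that were higher.

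NPC1L1, the target of ezetimibe (chromosome 7, 44512535 to 44541315), had normalised counts of 36.1, 34.0 and 42.8 with ezetimibe, 43.7, 48.2 and 47.6 with fenofibrate and 10.8, 6.45 and 20.3 with DMSO. These are low levels. The drug groups did not overlap, by a narrow margin, and the difference did not pass (log2 -0.30 ± 0.37, 95% interval -1.11 to 0.50, limma, adjusted p = 0.492). The interval does not show that the drugs acted alike. With only the 6 drug libraries in the fit the same difference had an SE of 0.15 and did not pass (limma, adjusted p = 0.0964). The list for fenofibrate's own receptor, 27 targets of PPARα with genes of fatty acid oxidation, had 0 members among the 60. Each single-drug table listed 1 of them.

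ATF4 genes made 9 of the 26 higher calls, more than any other list. Of the 42 genes on the list of ATF4 and the amino acid response, 12 were among the 60, and 9 of these were higher with ezetimibe, 0 were lower and 3 did not pass, against 43.3% higher over all 60. The median log2 difference of the 12 was 0.63, against 0.28 over all 60, and every value was above 0, although the lowest, 0.00 ± 0.28 for NUPR1, changed sign with the highest DMSO ratio and in 5 of the fits that left out 1 library. Of its members 21 were listed for ezetimibe and 12 for fenofibrate.

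FAM129A, a stress-induced protein also called NIBAN1 (ENSG00000135842, chromosome 1, 184790724 to 184974550), had 1979, 2016 and 1997 with ezetimibe, 528, 367 and 508 with fenofibrate and 117, 135 and 109 with DMSO. The ezetimibe mean was 4.27 times the fenofibrate mean, with no overlap (log2 difference 2.11 ± 0.13, limma, adjusted p = 1.73e-07). ALDH1L2, the mitochondrial enzyme that oxidises 10-formyltetrahydrofolate (chromosome 12, 105019784 to 105084577), had 1548, 1718 and 1647 with ezetimibe, 596, 395 and 609 with fenofibrate and 263, 214 and 274 with DMSO. Its fenofibrate libraries spread widely, with replicate 2 lowest, and the log2 difference of 1.64 ± 0.15 (limma, adjusted p = 5.95e-06) became 1.44 ± 0.11 without that library. In both genes fenofibrate replicate 2 was low, and both calls were made in each of the 17 alternative settings tried.

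TRIB3, a pseudokinase that dampens ATF4 signalling (chromosome 20, 362835 to 397559), had 5052, 5235 and 4981 with ezetimibe, 2699, 3476 and 2780.4 with fenofibrate and 850.5, 891 and 838 with DMSO (log2 difference 0.78 ± 0.09, limma, adjusted p = 1.73e-05). The drug groups were apart, with ezetimibe 1.7 times fenofibrate. ASNS, asparagine synthetase, was at a lower level, with 157, 119 and 132 with ezetimibe, 87.4, 67.7 and 87.2 with fenofibrate and 29.4, 24.9 and 35.3 with DMSO (log2 difference 0.74 ± 0.21, limma, adjusted p = 0.00939). Without ezetimibe replicate 1, its highest library, ASNS was no longer called (log2 0.64, adjusted p = 0.0561, the highest over its alternatives). PCK2, the mitochondrial enzyme that makes phosphoenolpyruvate, had 3123, 3016 and 3121 with ezetimibe and 2418, 2682 and 2482 with fenofibrate. Its difference was among the smallest that passed (log2 0.29 ± 0.09, limma, adjusted p = 0.0206), and it was lost without ezetimibe replicate 1 or 3 and without fenofibrate replicate 1 or 3 (adjusted p up to 0.0765).

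The 4 secreted products on the ATF4 list that are described here were higher with ezetimibe, against 43.3% higher over all 60 genes. They are among the 9 of 12 ATF4 members already counted as higher. GDF15, a cytokine that acts on the brain to lower food intake, had 2396, 2454 and 2436 with ezetimibe, 1705, 1898 and 1743 with fenofibrate and 737, 653 and 617 with DMSO (log2 difference 0.45 ± 0.08, limma, adjusted p = 0.000405). STC2, a secreted glycoprotein, had 2729, 2763 and 2456 with ezetimibe and 1724, 1641 and 1801 with fenofibrate (log2 0.62 ± 0.08, limma, adjusted p = 2.22e-05). ADM2, a peptide of the calcitonin family, and INHBE, an inhibin subunit, had log2 differences of 0.64 ± 0.13 and 0.65 ± 0.19 (limma, adjusted p = 0.00129 and 0.0116). In all 4 genes every ezetimibe library lay above every fenofibrate library, as in 51.7% of all 60 genes.

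The ATF4 members that did not pass were regulators. DDIT3, the stress-induced factor CHOP, had 379, 307 and 336 with ezetimibe and 239.8, 363 and 241 with fenofibrate, which overlapped, fenofibrate replicate 2 being high (log2 0.30 ± 0.17, 95% interval -0.07 to 0.68, limma, adjusted p = 0.146). Without that library DDIT3 was called (log2 0.50 ± 0.13, adjusted p = 0.01). ATF3, another stress-induced factor, had 162, 166 and 159 with ezetimibe and 137, 153 and 123 with fenofibrate (log2 0.24 ± 0.15, 95% interval -0.08 to 0.56, limma, adjusted p = 0.173). The drug groups of ATF3 did not overlap. NUPR1, a small chromatin protein, had 504, 404 and 399 with ezetimibe, 413, 464 and 425 with fenofibrate and 73.5, 93.0 and 34.2 with DMSO. The drug groups of NUPR1 overlapped and the 95% interval of the log2 difference ran from -0.62 to 0.62.

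The element to which ATF4 and its C/EBP partners bind is known from the ASNS promoter, which is shown for that reason, together with that of KLHDC7B, the gene with the largest difference. The letters TGATGNAA, on either strand, were in 3 of the 41 promoters found (ASNS, KLHDC7B and ATF3), that is 7.32%, and in 3.62% of 35116 promoters. They were in 2 of 20 promoters of genes higher with ezetimibe, 0 of 5 of lower genes and 1 of 16 of genes not called. Among called ATF4 members with a promoter found, only ASNS held them, and KLHDC7B is on no list. ASNS lies on the minus strand at chr7:97872359-97872658 and KLHDC7B on the plus strand at chr22:50545649-50545948, in GRCh38.p14. Capitals mark the match, which in KLHDC7B is on the opposite strand and reads reversed. The longer element known as the endoplasmic reticulum stress element was in 0 of the 41 promoters and in 0.0769% of all. None of the 24 genes on the list of the unfolded protein response was shared: 10 were listed for ezetimibe and 0 for fenofibrate, a contrast between lists that was not tested.
ASNS: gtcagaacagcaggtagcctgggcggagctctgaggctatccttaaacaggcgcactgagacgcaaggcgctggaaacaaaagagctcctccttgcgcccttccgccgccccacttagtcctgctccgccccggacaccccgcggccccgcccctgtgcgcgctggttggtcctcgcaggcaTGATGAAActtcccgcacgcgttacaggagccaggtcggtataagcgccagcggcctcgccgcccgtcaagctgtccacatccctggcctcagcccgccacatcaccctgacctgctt
KLHDC7B: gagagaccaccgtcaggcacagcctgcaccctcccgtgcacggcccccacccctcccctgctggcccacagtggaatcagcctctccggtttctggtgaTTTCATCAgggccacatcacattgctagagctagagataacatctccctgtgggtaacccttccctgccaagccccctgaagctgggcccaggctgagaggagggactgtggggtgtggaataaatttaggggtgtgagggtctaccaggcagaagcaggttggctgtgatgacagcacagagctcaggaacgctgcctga

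**Figure D2:**
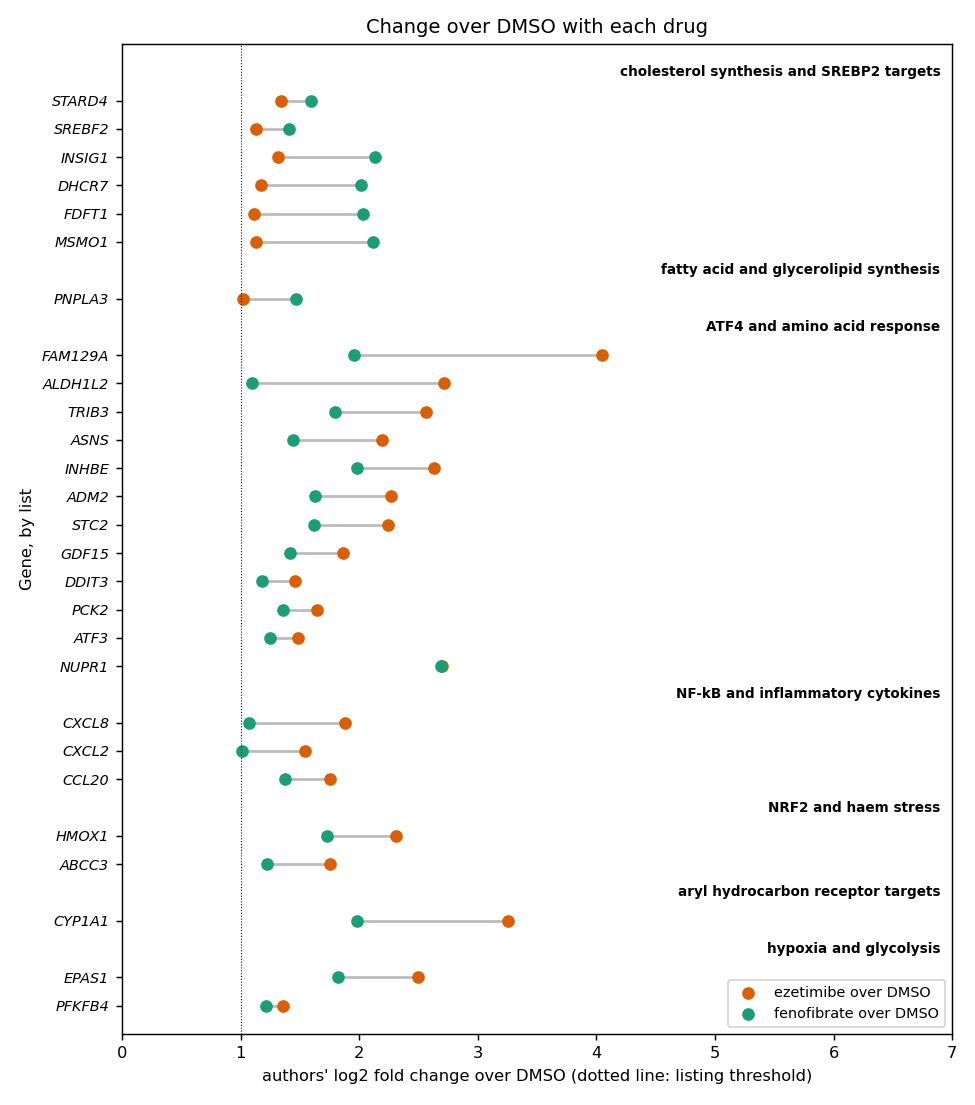
The authors' log2 fold change over DMSO (x axis) for shared members of 7 gene lists (y axis), with ezetimibe in orange and fenofibrate in green; the dotted line marks the listing threshold of 1. In the sterol list the ezetimibe point lies left of the fenofibrate point in all 6 genes drawn, and in the ATF4 list it lies right of it in all 12, by little in NUPR1.

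The sterol and ATF4 members moved apart in a way that does not depend on the scale between the tables. In each library the mean log2 level of the 12 ATF4 members was subtracted from that of the 7 sterol members. This gave 0.70, 0.69 and 0.71 with ezetimibe, 2.06, 1.98 and 2.01 with fenofibrate, and 1.71, 1.74 and 1.93 with DMSO. All ezetimibe libraries lay below all DMSO libraries, and all fenofibrate libraries lay above them. The members were chosen with results known, and the values are a description with no test. For the single pair of INSIG1 and TRIB3 the ratio was 0.171, 0.178 and 0.185 with ezetimibe, 0.611, 0.433 and 0.597 with fenofibrate, and 0.427, 0.370 and 0.481 with DMSO. Here fenofibrate replicate 2 lay within the range of the DMSO libraries.

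**Figure D3:**
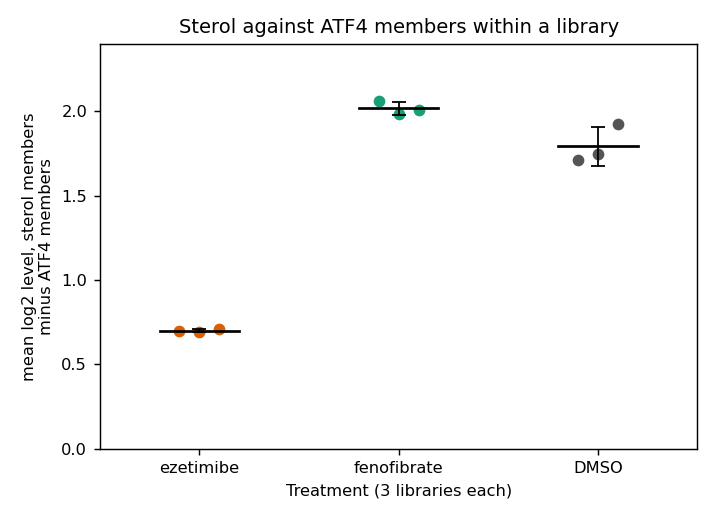
Mean log2 level of the 7 sterol members minus that of the 12 ATF4 members in each library (y axis), by treatment (x axis); points are libraries, the line is the mean and the bars are the SD over 3 libraries. The ezetimibe libraries sit between 0.69 and 0.71, the fenofibrate libraries between 1.98 and 2.06 and the DMSO libraries between 1.71 and 1.93.

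The called genes on the lists of xenobiotic, haem and inflammatory responses were higher with ezetimibe, as were 26 of all 35 called genes. These lists shared few genes with the 60, so their members are described singly. CYP1A1, a cytochrome that oxidises foreign compounds and is switched on by the aryl hydrocarbon receptor (ENSG00000140465, chromosome 15, 74719542 to 74725610), had 1398, 1461 and 1376 with ezetimibe, 579, 598 and 572 with fenofibrate and 149.9, 146 and 147 with DMSO. The libraries within each group were close, and the ezetimibe mean was 2.42 times the fenofibrate mean (log2 difference 1.27 ± 0.07, limma, adjusted p = 7.27e-08, the smallest of the 60). It was the only shared gene of 10 on the aryl hydrocarbon receptor list, of which 4 were listed for ezetimibe and 1 for fenofibrate. Its promoter, on the minus strand at chr15:74725479-74725778 in GRCh38.p14, is shown for a match to the core letters of the receptor's element. Binding of the receptor there was not tested. Capitals mark the letters GCGTG, which, on either strand, were in 68.3% of the 41 promoters and in 36.5% of 35116. They were in 50% of 20 promoters of genes higher with ezetimibe, 80% of 5 of lower genes and 87.5% of 16 of genes not called. The letters were thus least frequent in the genes higher with ezetimibe.
CYP1A1: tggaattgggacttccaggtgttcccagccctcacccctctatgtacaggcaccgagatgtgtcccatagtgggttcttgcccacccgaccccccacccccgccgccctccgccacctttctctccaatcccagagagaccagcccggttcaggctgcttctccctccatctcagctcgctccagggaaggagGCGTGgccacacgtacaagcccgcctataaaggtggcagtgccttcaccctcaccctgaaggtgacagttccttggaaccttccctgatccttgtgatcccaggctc

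The NRF2 and haem stress list had 2 shared members of 24, and both were higher, against 43.3% higher over all 60 genes. HMOX1, which breaks down haem, had 151, 134 and 136 with ezetimibe, 84.4, 117 and 80.3 with fenofibrate and 27.4, 26.7 and 31.0 with DMSO (log2 difference 0.59 ± 0.19, limma, adjusted p = 0.0206). ABCC3, an efflux pump of conjugated bile salts and drugs, had 162, 140.3 and 132 with ezetimibe and 92.5, 110.1 and 98.1 with fenofibrate (log2 0.52 ± 0.18, limma, adjusted p = 0.0293). Neither gene overlapped between the drugs. HMOX1 was no longer called without ezetimibe replicate 1 or 3 and without fenofibrate replicate 1 or 3 (adjusted p up to 0.0886), and ABCC3 without ezetimibe replicate 1 or 2 and without fenofibrate replicate 1 or 3 (adjusted p up to 0.114).

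The NF-κB list had 3 shared members of 26, all chemokines. Of these 1 was higher and 2 did not pass, against 43.3% higher over all 60 genes. CXCL8, which attracts neutrophils (chromosome 4, 73740506 to 73743716), had 1241, 1249 and 1178 with ezetimibe, 704, 656 and 728 with fenofibrate and 317, 303 and 377 with DMSO (log2 difference 0.81 ± 0.09, limma, adjusted p = 1.16e-05). CXCL2 had 169, 111 and 197 with ezetimibe and 114, 115 and 102 with fenofibrate, and 1 ezetimibe library fell among those of fenofibrate (log2 0.49 ± 0.27, 95% interval -0.11 to 1.08, limma, adjusted p = 0.141). Without that library, ezetimibe replicate 2, CXCL2 was called (log2 0.72 ± 0.27, adjusted p = 0.0499). CCL20, which attracts lymphocytes and dendritic cells, had 155, 144 and 136 with ezetimibe and 95.5, 122 and 118 with fenofibrate, with no overlap (log2 0.38 ± 0.16, 95% interval 0.02 to 0.74, limma, adjusted p = 0.063). CCL20 passed without fenofibrate replicate 2 (log2 0.44 ± 0.16, adjusted p = 0.0363) and with no rescaling between the tables (log2 0.42, adjusted p = 0.0431). Of the hypoxia and glycolysis list EPAS1, the hypoxia factor HIF-2α, did not pass (219.6, 206 and 179.6 with ezetimibe and 136, 90.6 and 153 with fenofibrate, log2 0.70 ± 0.38, limma, adjusted p = 0.136), nor did PFKFB4, a regulator of glycolysis (log2 0.16 ± 0.26, limma, adjusted p = 0.622). The drug groups of EPAS1 did not overlap, and it was called at the same difference of 0.70 with only the 6 drug libraries (SE 0.20, adjusted p = 0.0148) and without DMSO replicate 1 (SE 0.20, adjusted p = 0.0136), its lowest DMSO library.

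**Figure D4:**
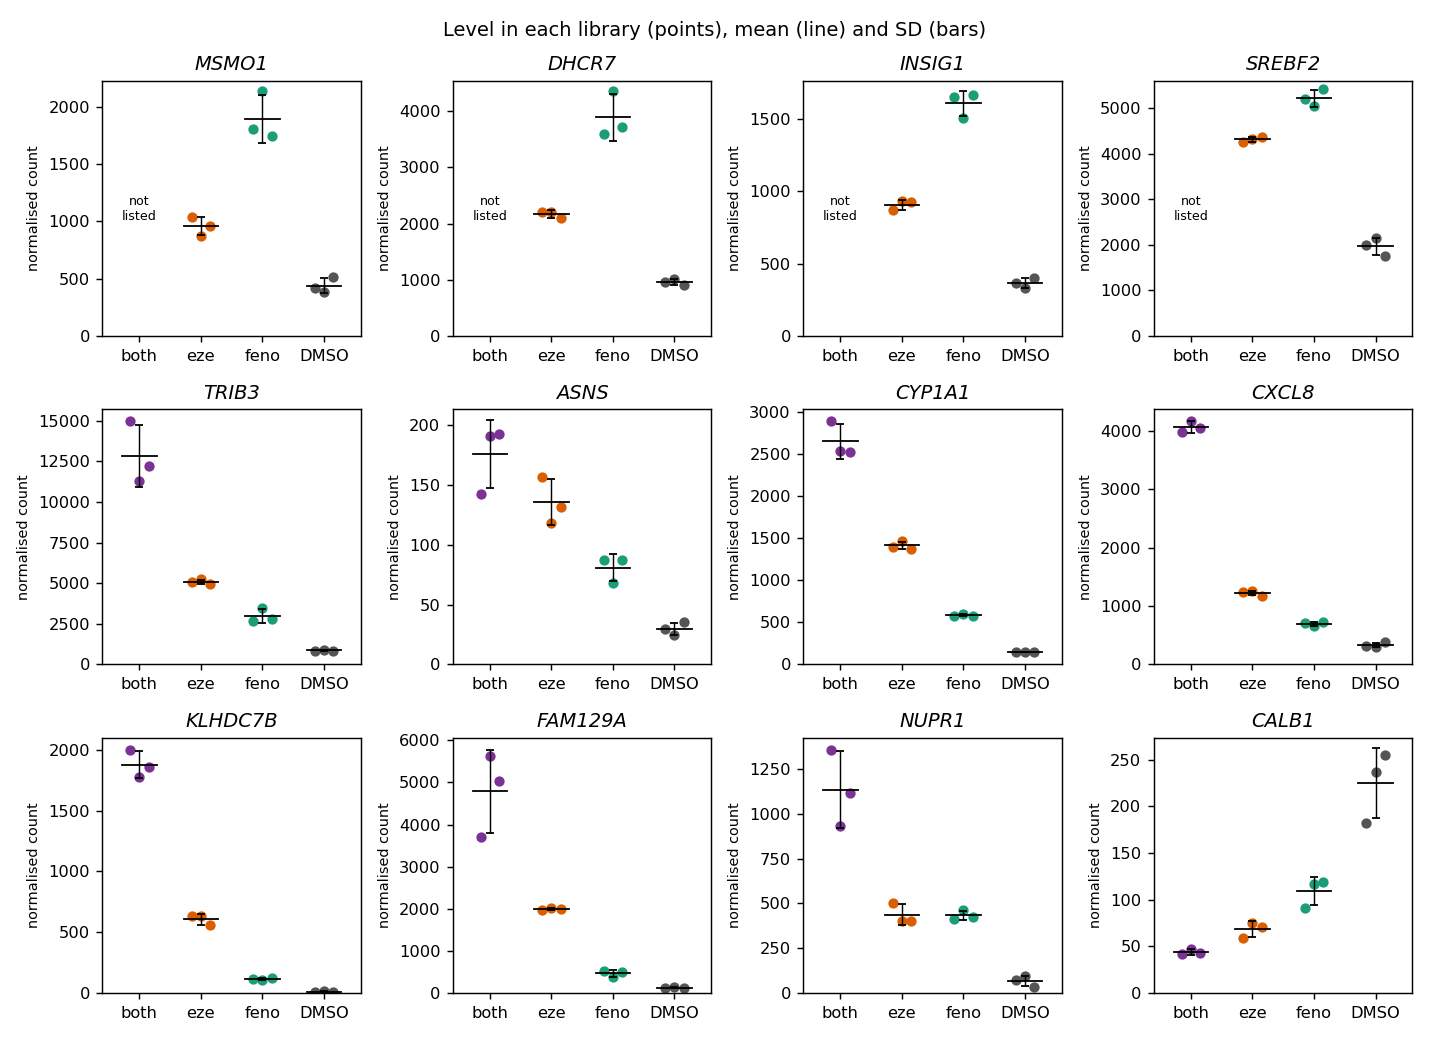
Normalised counts (y axis, linear, from 0) of 12 genes in each library, with both drugs (both), ezetimibe (eze), fenofibrate (feno) and DMSO on the x axis; points are libraries, lines are means and bars are SD over 3 libraries. The sterol genes MSMO1, DHCR7, INSIG1 and SREBF2 are not listed for the combination and are higher with fenofibrate, whereas TRIB3, ASNS, CYP1A1, CXCL8, KLHDC7B and FAM129A are higher with ezetimibe.

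Of the 31 shared genes on no list, 13 were higher with ezetimibe, 3 were lower and 15 did not pass. Over all 60 genes 43.3% were higher and 15.0% were lower, so the share called higher was near that of all genes. KLHDC7B, a kelch-domain protein (ENSG00000130487, chromosome 22, 50545891 to 50551023), had 632, 630.4 and 556 with ezetimibe, 115, 108 and 121 with fenofibrate and 8.82, 18.4 and 4.27 with DMSO. The ezetimibe mean was 5.29 times the fenofibrate mean (log2 difference 2.39 ± 0.36, limma, adjusted p = 0.000139). The drug groups were apart, and the DMSO libraries were near the bottom of the measured range. AKNA, an AT-hook protein, had 1833, 1915 and 1993 with ezetimibe, 945, 842 and 950.2 with fenofibrate and 340.0, 368 and 270.4 with DMSO (log2 difference 1.07 ± 0.11, limma, adjusted p = 7.44e-06). KLHDC7B, FAM129A, ALDH1L2, CYP1A1 and AKNA were the 5 called genes whose difference was over 1 on the log2 scale.

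The other higher genes on no list, apart from those that passed narrowly, had log2 differences up to 0.79. GPAT3 had 1376, 1252 and 1281 with ezetimibe, 743, 766 and 743 with fenofibrate and 374, 311 and 379 with DMSO (log2 difference 0.79 ± 0.09, limma, adjusted p = 1.07e-05). PIP5KL1, a relative of the phosphoinositide kinases, had 384, 376 and 387 with ezetimibe and 211, 221 and 233 with fenofibrate (log2 0.78 ± 0.13), and BEX2, a brain-expressed X-linked protein, had 725, 662 and 737 with ezetimibe and 354, 461 and 420.1 with fenofibrate (log2 0.79 ± 0.11). In these 3 genes each ezetimibe library lay well above each fenofibrate library. NRCAM, a neuronal adhesion molecule (162, 196 and 165 with ezetimibe and 109, 81.5 and 117 with fenofibrate, log2 0.77 ± 0.19), SEL1L3 (1040.4 ± 25.9 with ezetimibe and 668 ± 28.3 with fenofibrate, SD, n = 3 each, log2 0.64 ± 0.07) and the glycine transporter SLC6A9 (1275 ± 13.4 with ezetimibe and 857 ± 17.5 with fenofibrate, SD, n = 3 each, log2 0.57 ± 0.10) passed as well. So did the potassium channel KCNK15 (log2 0.53 ± 0.14).

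PLEKHF1, a lysosome-associated protein, AHNAK2, a large scaffold protein, and CEMIP, which binds hyaluronan, passed narrowly. Their log2 differences were 0.39 ± 0.15, 0.34 ± 0.13 and 0.30 ± 0.12 (limma, adjusted p = 0.0429, 0.041 and 0.0432). Each of the 3 calls was lost without any 1 of the 3 ezetimibe libraries and without fenofibrate replicate 2, with adjusted p up to 0.133 over the 3. The log2 differences without fenofibrate replicate 2 were 0.34 ± 0.17, 0.22 ± 0.12 and 0.23 ± 0.11 (limma, adjusted p = 0.102, 0.128 and 0.102). The 3 calls were also lost without DMSO replicate 1. PLEKHF1 was further lost without fenofibrate replicate 1, and CEMIP without fenofibrate replicate 3 and without DMSO replicate 2.

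The 3 genes that were lower than DMSO with each drug had lower means with ezetimibe than with fenofibrate, and CALB1 and PCDH17 were called. CALB1, the calcium-binding protein calbindin, had 58.8, 75.3 and 70.3 with ezetimibe, 91.5, 117 and 119 with fenofibrate and 182, 237 and 254 with DMSO, so that it lay farther from DMSO with ezetimibe (log2 difference -0.67 ± 0.18, limma, adjusted p = 0.00823). PCDH17, a protocadherin of cell adhesion, showed the same order, with 83.5, 59.8 and 79.8 with ezetimibe, 109, 104 and 113 with fenofibrate and 213, 212 and 232 with DMSO (log2 -0.56 ± 0.15, limma, adjusted p = 0.00939). CENPE, a kinetochore motor and the only shared gene of 39 on the G2/M list, had 578, 506 and 559.6 with ezetimibe and 705, 437 and 726 with fenofibrate, which overlapped (log2 -0.15 ± 0.18, 95% interval -0.54 to 0.23, limma, adjusted p = 0.489). Without fenofibrate replicate 2, the lowest of its group, CENPE passed with -0.39 ± 0.11 (limma, adjusted p = 0.0141). SH2D5, an SH2-domain adaptor, was the only gene on no list that was above DMSO with each drug and called lower with ezetimibe. It had 67.0, 58.8 and 54.2 with ezetimibe, 140.3, 94.1 and 122 with fenofibrate and 22.5, 30.4 and 35.3 with DMSO (log2 -0.96 ± 0.23, limma, adjusted p = 0.0048).

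For the 25 genes that did not pass, the precision differed from gene to gene. Of those named next, HKDC1, KLF15 and HSD17B7P2 had drug groups that did not overlap. ABHD4, a lipid hydrolase, had 792, 819 and 762 with ezetimibe and 765, 803 and 748 with fenofibrate, and the 95% interval of its log2 difference ran from -0.12 to 0.19. That of HKDC1, a hexokinase, ran from -0.03 to 0.26, and that of RAB3IL1, an exchange factor for Rab proteins, from -0.18 to 0.32. These 3 intervals leave room only for small differences. Others were wide, such as those of PCSK4 (-0.76 to 0.51), SLC16A13 (-0.57 to 0.63) and METTL27 (-0.46 to 0.44), whose values were under 100 normalised counts in every ezetimibe and fenofibrate library. KLF15, a Krüppel-like factor, and APOL6 had log2 differences of 0.28 ± 0.14 and 0.28 ± 0.21 (limma, adjusted p = 0.0962 and 0.26), and TMEM150A one of 0.17 ± 0.19. Without fenofibrate replicate 2, the highest of its group in both genes, TMEM150A was called higher with ezetimibe (log2 0.38 ± 0.14, limma, adjusted p = 0.0397), as was MT1G (log2 0.32 ± 0.11, limma, adjusted p = 0.0239), against 0.13 ± 0.15 for MT1G with all libraries. The metallothioneins MT1G and MT1M share much of their sequence and their reads may be split between copies. MT1M had 75.3, 76.4 and 61.8 with ezetimibe and 57.9, 155 and 83.2 with fenofibrate, with replicate 2 far above the others. HSD17B7P2, a pseudogene of a sterol enzyme (log2 -0.57 ± 0.36, called with only the 6 drug libraries at adjusted p = 0.0397), and AL133216.2, another transcribed pseudogene (log2 0.09 ± 0.17), are uncertain for the same reason. Exons of 15 of the 60 genes overlap a gene on the other strand in GENCODE release 29, among them FDFT1, SREBF2, STARD4, DDIT3, SLC6A9 and ALDH1L2. The sources used here do not say whether the counting used strand.

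The combination gives another readout of the same genes. It shares its DMSO libraries with the single drugs, and its rescaled values are described with no test. Of the 60 genes 49 were in the combination table. The 11 not listed there included 6 of the 9 genes that were lower with ezetimibe than with fenofibrate (MSMO1, FDFT1, DHCR7, INSIG1, SREBF2 and PNPLA3), 1 of the 26 that were higher (CEMIP) and 4 of the 25 that did not pass. A gene that is not listed has no combination value here, and its direction with the combination is not known. STARD4, a sterol member that was listed, had 459, 686 and 668 with the combination, beside 355 ± 33.2 with ezetimibe and 422 ± 89.8 with fenofibrate (SD, n = 3 each).

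In 35 of the 49 genes all 3 combination libraries lay above all 6 single-drug libraries. Against ezetimibe alone 36 of the 49 did so, where 58.8% of the 359 genes in both the combination and ezetimibe tables did, and against fenofibrate alone 39 did, where 67.7% of 65 genes did. The shares of genes whose combination libraries lay below were 12.3% against ezetimibe and 9.23% against fenofibrate over the same tables. All these genes have combination values only because they were listed for the combination against DMSO. Unlisted genes are missing from every count, so the counts are partly set by that listing. The 65 genes include the 49, so their share is no independent background. No wider share exists for the 35, since only these 49 genes were listed for all 3 treatments. Of the 25 listed genes that were higher with ezetimibe than with fenofibrate, 20 were above all single-drug libraries. KLHDC7B reached 1999.9, 1781 and 1858 with the combination, TRIB3 14982, 11318 and 12200.2 and GDF15 17533, 13339 and 14958, while ATF3, whose difference between the single drugs did not pass, reached 3156, 2691 and 2656. ALDH1L2 (1371, 2737 and 2259.9), ASNS (143, 191 and 193), NRCAM, AHNAK2 and PIP5KL1 (376, 315 and 277) were higher with ezetimibe than with fenofibrate but their combination libraries overlapped those of ezetimibe. CALB1 (41.8, 47.4 and 42.2) and PCDH17 (19.8, 15.8 and 11.5) lay below all single-drug libraries.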

How the data were processed

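RNA of Cal51 cells was sequenced. Genome build hg38, alignment by HISAT2 2.0.5, counting by featureCounts 1.5.0-p3 and the read trimmer fastp come from the submitters' processing notes, and how the authors normalised and tested is not given in them. In the tables the authors deposited, every gene has a normalised signal in 6 libraries, with a log2 fold change and a p-value. Every signal value is a whole multiple of 1 number per library (within 0.001), as counts divided by a factor would be.

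The 60 genes in both single-drug tables were joined by gene identifier. The DMSO ratios of the tables were 1.02 to 1.03, and the combination table was put on the same scale in the same way. Limma 3.58.1 (with trend, R 4.3.3) was fitted to log2(value + 1) of 9 libraries, 3 each of ezetimibe, fenofibrate and DMSO. The tests are 2-sided with Benjamini-Hochberg adjustment over the 60 genes. Limma was tested on simulated data with the same spread setting for all genes, DMSO at the mean level of the drugs and no deviation with gene length. That test does not cover the low DMSO levels or the deviation with gene length seen here. With 3 against 3 libraries an exact permutation p cannot be below 0.1, so none is given. Positions equal GENCODE release 29 in 60 of 60 genes. The 19 gene lists (415 memberships, all matched) and the genes included were chosen with earlier results of these data known. Lists not mentioned in the results (S phase, growth arrest, liver X receptor targets, ID proteins) had 0 shared members, and the immediate early list shared ATF3 alone.

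Named genes were the 12 largest called rises and falls (mean 50 or more, groups apart), up to 5 shared members of each list, and NPC1L1. Others were chosen after their values were seen. Alternatives covered the added constant, a filter, the scale, the libraries fitted, a replicate block and each library left out. The fits and counts cover all 60 genes, and 2 of them are not reported by name or drawn here.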

Additional observations from a re-analysis of the deposited data

How the results depend on the processing

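All 35 calls kept their direction in each of the 17 alternatives, and 27 (19 higher, 8 lower) remained called in every one. The other 8 were PNPLA3, ASNS, PCK2, HMOX1, ABCC3, PLEKHF1, AHNAK2 and CEMIP. Changes of sign were limited to uncalled genes (NUPR1, METTL27, SLC16A13, MT1M and AL133216.2). The number called higher and lower was 26 and 9 with 0.5 added, 26 and 10 with 5 added, 26 and 9 with a mean of at least 50, 26 and 9 or 10 with the lowest or highest DMSO ratio, 27 and 9 with no rescaling, and 26 and 11 with only the 6 drug libraries in the fit. Leaving out 1 library gave 19 to 27 higher, 8 to 12 lower and 27 to 39 in all. The sterol list then had 5 to 7 members lower and the ATF4 list 7 to 10 higher. The NF-κB list had 2 members higher with no rescaling, and 1 to 2 when 1 library was left out, the second being CCL20 or CXCL2. The sterol minus ATF4 difference between the drugs, -1.32 on the log2 scale, ran from -1.33 to -1.30.

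With the replicate number as a block 24 genes were higher and 8 lower, 32 in all, and PNPLA3, PLEKHF1 and AHNAK2 were not called. Same-numbered ezetimibe and fenofibrate libraries had correlations of 0.11, -0.04 and 0.03 between their deviations. With 3 libraries per group these values cannot settle whether the numbers pair the samples, and the labels do not say. The block stands only here. The planned edgeR and DESeq2 fits were not run, because the tables hold normalised values and were not taken as counts. Reads worked back from them served only to describe depth, so no count test stands beside limma here. Depth is a limit for genes under about 50 normalised counts, such as NPC1L1. The SE of NPC1L1 also changed with the libraries fitted, from 0.37 to 0.15 with only the 6 drug libraries.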

Other observations

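The combination libraries also differed among themselves with gene length. Across the 49 shared genes in the combination table, the log2 deviation of a library from the mean of the other combination libraries had a Spearman correlation with gene length of -0.62 in replicate 1, 0.51 in replicate 2 and 0.44 in replicate 3, as a description across genes in which the 3 values are tied to each other. Replicate 1 had the lowest combination value of ALDH1L2 (1371, against 2737 and 2259.9 in replicates 2 and 3), CENPE and NRCAM, and the highest of TRIB3 and GDF15. The ezetimibe libraries showed no correlation beyond 0.08 in size.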
